A study of Mus musculus with 4 samples.

Results

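The genes of bone morphogenetic protein (BMP) ligands and of the receptors that bind them were compared between Sox2 conditional knockout and Sox2 heterozygous dermal papilla cells. The set held 10 genes, 6 for ligands (Bmp2, Bmp3, Bmp4, Bmp5, Bmp6 and Bmp7) and 4 for receptors (Bmpr1a, Bmpr1b, Bmpr2 and Acvr1), of 19938 genes measured in all. They were chosen by name: each of the 10 had 1 probe set, a group of array probes read as a single value, and that probe set named no other gene. Dermal papilla cells, the mesenchymal cells under the hair matrix, came from mouse skin at postnatal day 5. The groups were a Sox2 conditional knockout (cKO, 2 arrays) and Sox2 heterozygotes (Het, 2 arrays). All samples were sorted by a Sox2GFP reporter together with integrin alpha 9, so cells of both genotypes carried the reporter and the Het cells were not wild type. The driver of the conditional deletion, the number and sex of the animals behind a sample and any pooling are not stated in the labels. The replicates are labelled as biological, with nothing on separate animals or litters, so p-values cover only the spread among the 4 arrays. How much of that spread lies between animals is not known.

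BMPs are secreted dimers that bring together type I receptors (Bmpr1a, Bmpr1b and Acvr1 encode 3 of them) and type II receptors such as the product of Bmpr2. The activated type I receptor phosphorylates SMAD proteins, which enter the nucleus and induce genes such as those of the Id family. In the hair follicle, papilla and matrix exchange BMP signals: mice that lack Bmpr1a in the follicle epithelium fail to form normal hair shafts, and BMP signals help papilla cells in culture to keep their hair-inducing property.

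Each value is a log2 difference from the middle of the 4 arrays, because the deposited table sets the median of each probe set to 0. The values carry no expression level, so whether a gene was detected, or which of 2 genes was more abundant, cannot be read from them. The centring also makes the values of the middle arrays equal in size and opposite in sign for every gene with 1 probe set. Sox2 stood at -0.87 and -0.94 in cKO replicates 1 and 2, against 0.96 and 0.87 in Het replicates 1 and 2. The difference was -1.81 ± 0.06 (standard error, SE, n = 2 arrays per group). Where this probe set lies with respect to the deletion is not known here, so its value is only a partial check of the labels. Precision is limited by having 4 arrays, of which cKO replicate 2 stood furthest from the others: over all probe sets its SD was 0.158, against 0.112 in cKO replicate 1 and 0.138 and 0.107 in the Het arrays.

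Sex-linked genes, examined because an earlier analysis of these arrays had shown them, also separated the groups. Xist, expressed from the inactive X chromosome, stood at 0.85 and 1.23 in the cKO arrays, against -4.08 and -0.85 in Het replicates 1 and 2. The Het arrays thus also differed from each other in Xist, with a gap of 3.23, against 0.38 between the cKO arrays. The Y-linked gene Eif2s3y stood at -0.87 and -0.79 in cKO, against 1.18 and 0.79 in Het. Kdm5d, also on the Y chromosome, was at -0.27 and -0.34 in cKO, against 0.63 and 0.27 in Het. For Uty, another Y-linked gene, the values were -0.22 and -0.20 in cKO and 0.56 and 0.20 in Het. All 4 of these genes had groups that did not overlap, so sex and genotype cannot be told apart in any difference given here, for the ligand and receptor genes as for the rest of the pathway.

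No gene of the set passed the test between cKO and Het. With limma, a linear model fitted to all genes at once, 0 of the 10 passed an adjusted p of 0.05, as did 0% of all genes. Without adjustment 0 of the 10 had a p under 0.05, against 5.28% of all genes, and the same fit without moderation also gave 0 members. Other settings gave some of the 10 genes an unadjusted p under 0.05, and 0 of the 10 passed after adjustment in any of them. With the replicate number as a block this held for Acvr1 (adjusted p = 0.611, limma), where 1625 of all genes had such a p, against 1053 without the block. Among the 9969 genes kept by a filter on SD it held for Bmp6 (adjusted p = 0.434) and Bmp2 (adjusted p = 0.438, limma), where 777 genes had one. It also held for Bmp2 and Bmp4 without cKO replicate 1 (adjusted p = 0.587 for each, limma), where 1647 genes had one. Without Het replicate 2 it held for Bmp6 (adjusted p = 0.793) and Bmp7 (adjusted p = 0.818, limma), where 1210 genes had one. The ligand genes Bmp2 and Bmp6 were higher in both cKO arrays than in either Het array, 2 of 10 genes, where 17.8% of all genes were separated in that direction. The receptor gene Acvr1 was lower in both cKO arrays than in either Het array, 1 of 10, where the share of all genes was 15.6%. Both shares are close to those over all genes. The remaining 7 genes had overlapping groups.

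The set had no common direction, with 5 genes higher and 5 lower in cKO. The median difference of the 10 genes was 0.014, beside 0.0034 over all genes. Their differences were wider than those of the typical gene, with a median size of 0.098 for the 10 genes and 0.047 over all genes. Of the ligand genes 4 of 6 were higher, and of the receptor genes 1 of 4. Without expression levels, probe sets near background could not be left out of the comparison with all genes.

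**Figure D1:**
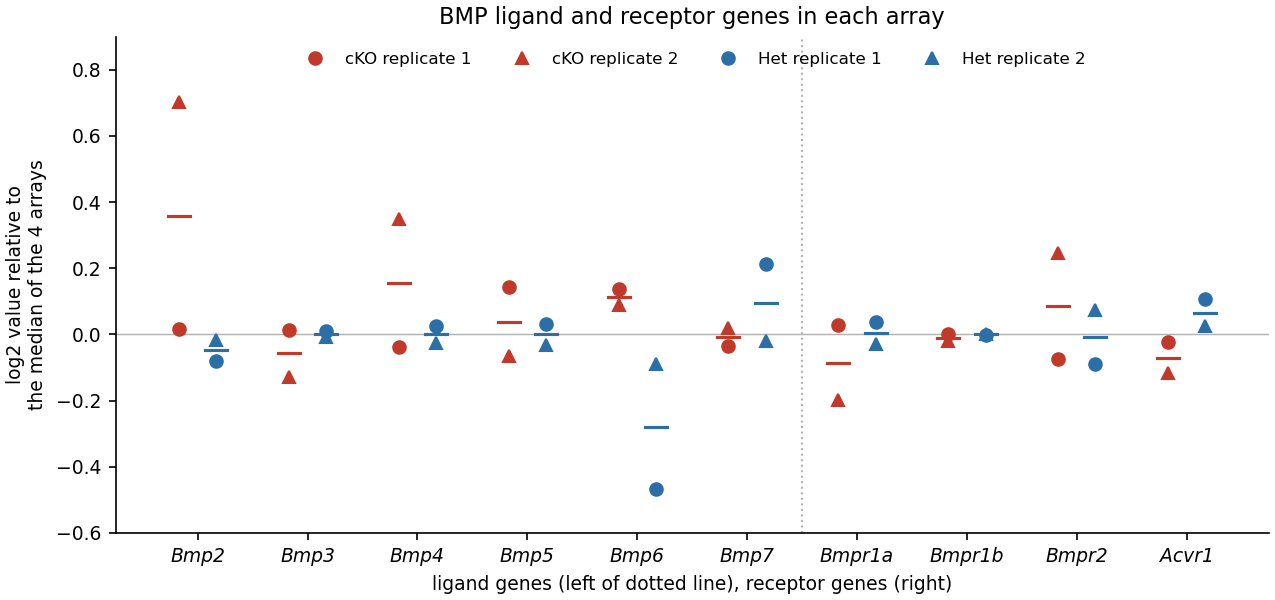
Values of the 6 ligand genes (left of the dotted line) and the 4 receptor genes (right) on the vertical axis, in log2 units from the middle of the 4 arrays. Red marks are cKO arrays and blue marks Het arrays (circles, replicate 1; triangles, replicate 2), and short lines are group means; cKO replicate 2 reaches 0.70 for Bmp2 and Het replicate 1 reaches -0.47 for Bmp6.

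Promoter letters are shown for the 2 genes of this set with separated groups that have a RefSeq window, Bmp6 and Acvr1. Bmpr1b is shown too, as the only gene of the set found to hold the SOX letters searched for, ACAAT and ACAAAG. The windows are the 250 bases before the annotated start of transcription, printed 5′ to 3′ on the strand of the gene, from RefSeq with build GRCm38.p6, and capitals mark a match.
Bmp6, chr13:38345466-38345715, plus strand: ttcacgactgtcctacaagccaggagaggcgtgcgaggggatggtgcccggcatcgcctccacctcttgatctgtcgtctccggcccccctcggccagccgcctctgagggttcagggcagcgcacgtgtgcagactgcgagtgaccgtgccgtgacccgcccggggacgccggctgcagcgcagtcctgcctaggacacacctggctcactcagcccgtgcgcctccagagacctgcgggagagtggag
Acvr1, chr2:58566829-58567078, minus strand: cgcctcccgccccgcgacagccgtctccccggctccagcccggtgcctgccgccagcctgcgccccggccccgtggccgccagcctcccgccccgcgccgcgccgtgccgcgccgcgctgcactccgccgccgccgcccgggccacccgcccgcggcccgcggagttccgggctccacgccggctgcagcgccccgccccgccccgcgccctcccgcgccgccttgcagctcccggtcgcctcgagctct
Bmpr1b, chr3:141982265-141982514, minus strand: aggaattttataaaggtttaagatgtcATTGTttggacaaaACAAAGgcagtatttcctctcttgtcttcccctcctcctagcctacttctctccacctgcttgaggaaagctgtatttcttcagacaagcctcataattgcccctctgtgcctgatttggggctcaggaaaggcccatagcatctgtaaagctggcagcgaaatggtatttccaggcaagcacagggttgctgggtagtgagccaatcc

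Windows were found for 7 of the 10 genes, Bmp2, Bmp3 and Bmp7 being the others. The SOX letters ACAAT and ACAAAG were searched on both strands, as were the SMAD-binding letters GGCGCC, which read the same on either strand; no match overlapped another. Bmpr1b held 1 match to each of the SOX motifs in each of its 3 windows, a pair of which overlap and share theirs. The other 6 genes held neither, where 30.9% of the 27025 genes in the table held ACAAT and 18.6% held ACAAAG in at least 1 window. GGCGCC stood once in the window of Bmpr1a and once in that of Bmpr2, and in 10.8% of all genes. The windows of Bmp6 and Acvr1 held none of these letters. Base composition differed between them: G and C made up 68.8% of the Bmp6 window, 85.6% of the Acvr1 window and 46.8% of the Bmpr1b window shown, with a median of 52.4% over all windows. These letters describe the windows and say nothing of binding.

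Bmp6, whose ligand is known in the liver as the inducer of hepcidin and in cultured papilla cells as a factor that helps keep hair-inducing activity, was higher in both cKO arrays. It stood at 0.14 and 0.090 in cKO replicates 1 and 2, against -0.47 and -0.090 in Het replicates 1 and 2. Both cKO arrays were above both Het arrays, and Het replicate 1 was the lowest of the 4. The difference of 0.39 ± 0.15 (SE, n = 2 per group), a 1.31-fold higher value in cKO, had a 95% interval from -0.039 to 0.82 and did not pass (adjusted p = 0.937, limma). It was larger than the gap between the cKO arrays (0.048) and slightly larger than that between the Het arrays (0.38). Without Het replicate 1 the difference of Bmp6 was 0.20, and without Het replicate 2 it was 0.58. A difference of this size or more was found in 2.54% of all genes.

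Bmp2, which encodes a ligand named for its bone-forming activity and is expressed in the hair matrix, had the largest difference of the set, and 1 array decided it. It stood at 0.016 and 0.70 in cKO replicates 1 and 2, against -0.080 and -0.016 in Het replicates 1 and 2. The cKO replicate 1 value lay close to the Het values, while cKO replicate 2 was far above the other 3 arrays. The difference was 0.41 ± 0.26 (SE, n = 2 per group), or 1.33-fold, with a 95% interval from -0.36 to 1.18 (adjusted p = 0.982, limma). It was smaller than the gap of 0.69 between the cKO arrays. Without cKO replicate 2 the difference of Bmp2 was 0.063, and without cKO replicate 1 it was 0.75. At 0.78, the range over the 4 arrays was exceeded by 2.68% of all genes.

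Bmp4, a ligand gene of the follicle mesenchyme, had a similar high value in cKO replicate 2. It stood at -0.037 and 0.35 in cKO replicates 1 and 2, against 0.025 and -0.025 in the Het arrays. The groups overlapped, since cKO replicate 1 had the lowest value of all. The difference was 0.16 ± 0.15 (SE, 95% interval -0.29 to 0.60, adjusted p = 0.986, limma), and it turned to -0.037 without cKO replicate 2.

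Among the pathway genes outside the set, those closest to Bmp2 over the 4 arrays were looked for by the root mean square difference. Fst, the gene of follistatin, which binds activins and some BMPs, was the nearest at 0.20. Its values were 0.12 and 0.37 in cKO replicates 1 and 2, against -0.23 and -0.12 in Het replicates 1 and 2. Hey1, a transcription factor gene that responds to Notch and BMP signals, followed at 0.21, and Smurf2, a ubiquitin ligase gene of the SMAD pathway, at 0.25. All 3 had their highest value in cKO replicate 2, as Bmp2 had, which a choice by closeness to Bmp2 makes likely. With 4 arrays this likeness is a description only.

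The remaining ligand genes had small differences and overlapping groups. Bmp7, needed for kidney and eye development in the mouse, stood at -0.034 and 0.021 in the cKO arrays, against 0.21 and -0.021 in the Het arrays. Its difference of -0.10 ± 0.097 (SE) rested on Het replicate 1, without which it was 0.014. Bmp5, the gene behind the short ear mutation of the mouse, stood at 0.14 and -0.066 in cKO, against 0.031 and -0.031 in Het. The cKO arrays lay on either side of the Het arrays, and the difference of Bmp5 was 0.038 ± 0.089. Bmp3, an unusual ligand gene of the family whose product counteracts other BMPs, stood at 0.014 and -0.13 in cKO, against 0.0091 and -0.0091 in Het. Its difference was -0.057 ± 0.064, and again cKO replicate 2 lay apart from the others.

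Acvr1, which encodes a type I receptor also used by activin-related signals, was the receptor gene with the largest difference. It stood at -0.024 and -0.12 in cKO replicates 1 and 2, against 0.11 and 0.024 in Het replicates 1 and 2. The groups did not overlap, and the 4 differences between single cKO and Het arrays ran from -0.22 to -0.048. The difference was -0.14 ± 0.058 (SE, n = 2 per group), a 1.1-fold lower value in cKO, with a 95% interval from -0.31 to 0.035 (adjusted p = 0.951, limma). It exceeded the gap between the cKO arrays (0.092) and that between the Het arrays (0.084). Leaving out 1 array at a time gave differences of Acvr1 between -0.18 and -0.090, all lower in cKO. A difference larger than both gaps was found for 2 of the 10 genes, Acvr1 and Bmp6, where 21.7% of all genes had one; this measure was chosen after the values were seen.

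Bmpr2, the gene of the type II receptor, stood at -0.075 and 0.25 in the cKO arrays, against -0.090 and 0.075 in the Het arrays. Replicate 2 was above replicate 1 in both groups, and the groups overlapped. Its difference of 0.093 ± 0.14 (SE) lay within a 95% interval from -0.32 to 0.50, and it was -0.067 without cKO replicate 2. Bmpr1a, the type I receptor gene best known from the hair follicle, stood at 0.028 and -0.20 in cKO, against 0.037 and -0.028 in Het. Its difference of -0.090 ± 0.095 rested on cKO replicate 2, without which it was 0.023.

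Bmpr1b, the gene of a type I receptor known from cartilage of the digits, varied least of the set. Its values were 0.0015 and -0.020 in the cKO arrays, against -0.0015 and 0.0015 in the Het arrays. The range over the 4 arrays was 0.022, and 98.2% of all genes had a larger one. The difference was -0.0094 ± 0.036 (SE), and its 95% interval from -0.11 to 0.095 was the narrowest of the 10. A probe set near background would also vary little on this scale, so the values cannot tell a steady gene from one that was not expressed.

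**Figure D2:**
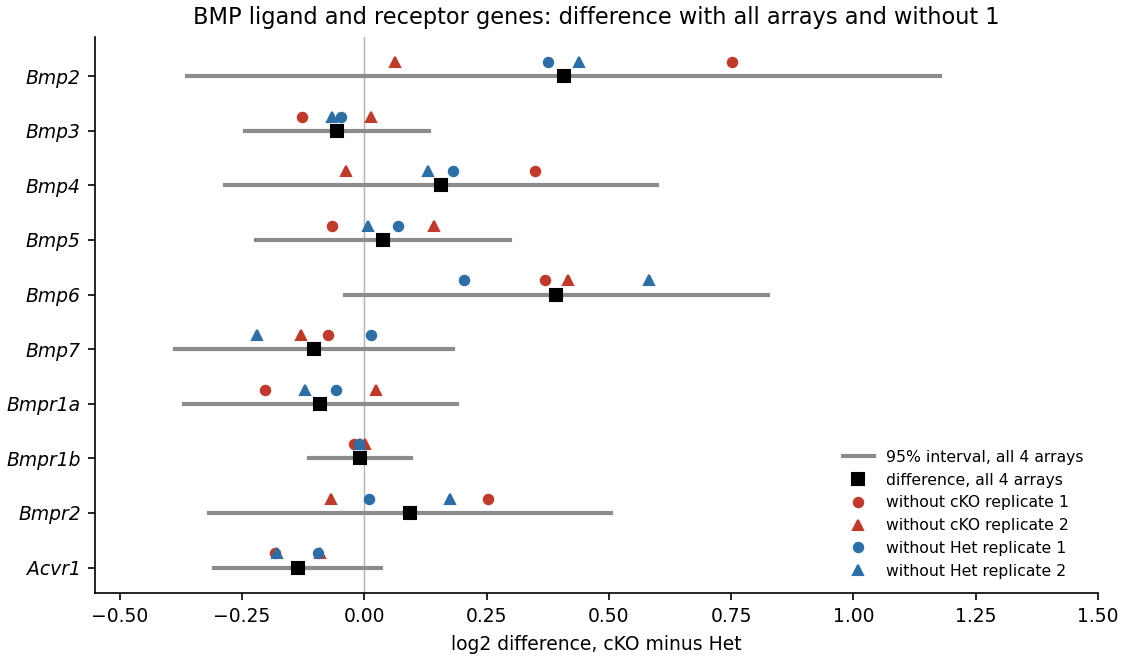
Log2 differences, cKO minus Het, on the horizontal axis for the 10 genes. Black squares are the differences over all 4 arrays, grey bars their 95% intervals from limma, and coloured marks the differences without 1 array (red, a cKO array left out; blue, a Het array); every bar crosses 0, and the marks stay on one side of 0 for Bmp2, Bmp6 and Acvr1.

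Single arrays carried much of the variation in this set. In 7 of the 10 genes (Bmp2, Bmp3, Bmp4, Bmpr1a, Bmpr1b, Bmpr2 and Acvr1) cKO replicate 2 was the array farthest from the median, where 31.7% of all genes had it there; this count too was made after the values were seen. Bmp6 and Bmp7 had Het replicate 1 farthest, and Bmp5 had cKO replicate 1. Directions turned with 1 array left out in 7 genes, Bmp3, Bmp4, Bmp5, Bmp7, Bmpr1a, Bmpr1b and Bmpr2. For 5 of these the array was cKO replicate 2, for Bmp5 it was cKO replicate 1 and for Bmp7 Het replicate 1.

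The other genes of the pathway were grouped by role in 6 lists, with 62 genes tested. Of these 62 genes 0 passed limma's test over all genes, 6 had an unadjusted p under 0.05, 34 were higher in cKO and 28 lower, and 11 were separated in each direction. Over all genes 5.28% had such a p, 17.8% were separated as higher and 15.6% as lower, so the counts of separated genes lie near those shares. The median size of the difference was 0.061 for the 62 genes, beside 0.047 over all genes. None of the other BMP and GDF ligand genes had a difference as large as those of Bmp2, Bmp4 or Bmp6. Of these 11 genes 8 were higher in cKO and 3 lower, and they lay between -0.10 and 0.062. Bmp8a, a ligand gene of the germ line, had the lowest of these values at -0.10 ± 0.054 (SE), or -0.054 without cKO replicate 2. Gdf10, which encodes a ligand close to Bmp3, was at -0.062 ± 0.13.

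Among 9 other receptor and co-receptor genes, 4 were higher and 5 lower in cKO. Groups were separated for 2 of them as higher and 1 as lower, where 17.8% and 15.6% of all genes were. An unadjusted p under 0.05 in limma was found for 1 of the 9, a gene higher in cKO, against 5.28% of all genes. The 2 largest differences were both lower in cKO. Eng, the gene of the co-receptor endoglin, stood at -0.12 and -0.063 in the cKO arrays, against 0.46 and 0.063 in Het replicates 1 and 2. Its difference of -0.35 ± 0.15 was -0.16 without Het replicate 1. Neo1, which encodes the receptor neogenin that binds repulsive guidance molecules, was at -0.26 ± 0.18 with overlapping groups, and at -0.058 without Het replicate 1. The 6 genes of the proteases that process BMPs or free them from inhibitors stayed between -0.062 and 0.085; Tll2 was at 0.085 ± 0.038 and Bmp1, which encodes a procollagen protease and no ligand, at 0.074 ± 0.12.

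Secreted antagonists held the largest difference of the pathway. Sostdc1, an inhibitor of BMP and WNT signals, was at -2.15 ± 0.49 and Fst at 0.42 ± 0.11 (SE), neither of which passed (adjusted p = 0.934 for each, limma). Of the 18 antagonist genes tested 10 were higher in cKO and 8 lower, with a median of 0.012. Inside the cell, 7 of 8 genes of SMAD transducers and inhibitors were higher, with a median of 0.058. Of these 8 genes 2 were separated as higher, where 17.8% of all genes were, and 0 as lower. An unadjusted p under 0.05 in limma was found for 0 of the 8, against 5.28% of all genes. Smad1, which encodes a transducer that the type I receptors phosphorylate, stood at 0.21 and 0.050 in the cKO arrays, against -0.12 and -0.050 in the Het arrays, a difference of 0.21 ± 0.073 that was 0.13 without cKO replicate 1. Its relative Smad5 was at 0.11 ± 0.15, with overlapping groups.

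Of the 10 response targets 9 were lower in cKO, with a median of -0.14. Groups were separated for 3 of them as lower and 1 as higher, where 15.6% and 17.8% of all genes were. An unadjusted p under 0.05 in limma was found for 3 of the 10, against 5.28% of all genes. Id3 was at -0.99 ± 0.18 and Id1 at -0.32 ± 0.11 (SE), both transcriptional regulators that BMP signals induce; without cKO replicate 1 the difference of Id1 was -0.21. Hey1 was the only target gene that was higher, at 0.29 ± 0.091, or 0.18 without cKO replicate 2. None of these genes passed over all genes (adjusted p from 0.897 for Id3 to 0.937 for Id1, limma). The lists were not tested as sets.

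**Figure D3:**
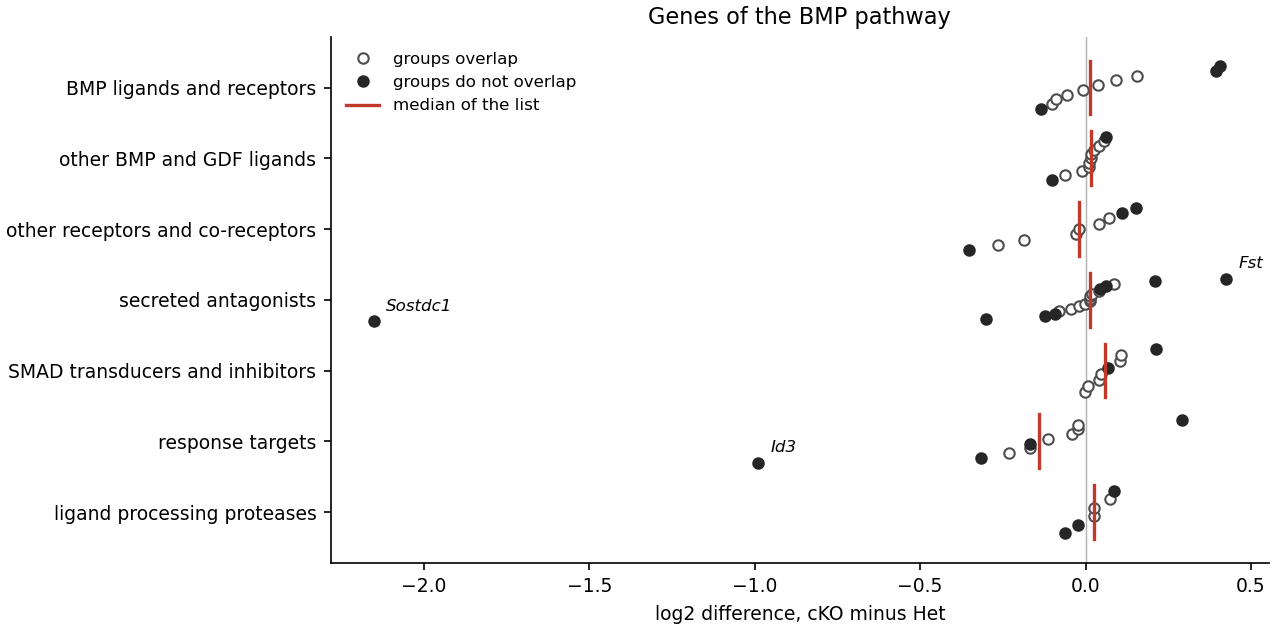
Log2 differences, cKO minus Het, on the horizontal axis for the 10 ligand and receptor genes and for 6 lists of other BMP pathway genes. Each circle is a gene (filled where the groups do not overlap) and each red line the median of a list; the 10 genes lie between -0.14 and 0.41, while Sostdc1 lies at -2.15 and Id3 at -0.99.

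Markers of cells that the sort could hold were set beside these values. In bulk samples, fewer cells of a type and less RNA per cell cannot be told apart. The dermal papilla markers, which mark the sorted cells themselves, varied more than the typical gene. Of the 14, 7 were higher and 7 lower in cKO, with medians of -0.026 and 0.054 in the cKO arrays, against 0.12 and -0.062 in the Het arrays. Their median size of difference was 0.30, beside 0.098 for the ligand and receptor genes and 0.047 over all genes. None of the 14 passed limma's test over all genes, and 4 had an unadjusted p under 0.05, against 5.28% of all genes. In each direction 3 were separated, where 17.8% of all genes were separated as higher and 15.6% as lower. Vcan, the gene of the matrix proteoglycan versican, was at -0.15 and -0.63 in cKO, against 0.62 and 0.15 in Het. Its difference of -0.77 ± 0.26 (SE) was the largest of the list. Wif1 had the largest in the other direction and of nearly the same size, 0.75 ± 0.22, also with separated groups.

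Of 10 keratinocyte markers 9 were lower in cKO, and their medians were -0.078 and 0.018 in cKO, against -0.074 and 0.28 in Het. Groups were separated for 2 of the 10, both as lower, where 15.6% of all genes were. Itga6, the gene of integrin alpha 6 in basal keratinocytes, had the largest difference of that list, -0.52 ± 0.17 (SE). This was -0.31 without cKO replicate 1. Itga6 stood at 0.15 and 0.18 in Het replicates 1 and 2, unlike the list medians, which were above 0 in Het replicate 2 and below 0 in Het replicate 1. Of 8 dermal fibroblast markers 7 were lower in cKO, with medians of -0.025 and -0.094 in cKO, against 0.093 and 0.19 in Het. Groups were separated for 4 of the 8 as lower and 1 as higher, where 15.6% and 17.8% of all genes were. An unadjusted p under 0.05 in limma was found for 2 of the 8, against 5.28% of all genes, and 0 passed after adjustment. Lum, which encodes the matrix protein lumican, was at -0.54 ± 0.12. Among the Schwann cell markers, 4 of 6 tested were lower in cKO and 2 higher. Their medians were -0.013 and -0.063 in cKO, against 0.082 and 0.0092 in Het. In 2 of the 6 the groups were separated, both as lower, where 15.6% of all genes were. Fabp7, a fatty acid binding protein gene of glia, stood at -0.36 and -0.55 in cKO, against 0.36 and 0.38 in Het, and its groups were far apart for their spread (-0.82 ± 0.081; adjusted p = 0.897, limma).

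Melanocyte markers had medians of -0.040 and 0.042 in cKO, against -0.085 and 0.18 in Het, and the pigment cell gene Mlana had overlapping groups (-0.30 ± 0.81). Of the dermal sheath and smooth muscle markers 5 of 6 were lower in cKO. In 2 of the 6 the groups were separated, both as lower, where 15.6% of all genes were. Myh11, the smooth muscle myosin gene, overlapped between groups at -0.26 ± 0.16, or -0.068 without Het replicate 2. Endothelial and immune markers had medians within 0.031 of 0 in every array. Of the 6 endothelial markers 4 were higher in cKO and 2 lower, with 3 separated as higher and 0 as lower. Of the 6 immune markers 3 were higher and 3 lower, with 2 separated in each direction. Over all genes 17.8% were separated as higher and 15.6% as lower. The endothelial cadherin gene Cdh5 was at -0.13 ± 0.17 and Cd74, which encodes the invariant chain of antigen-presenting cells, at -0.056 ± 0.050, or -0.0084 without Het replicate 2. Without expression levels it cannot be said which of these markers were at or near 0, and their part in the differences of the ligand and receptor genes was not tested.

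**Figure D4:**
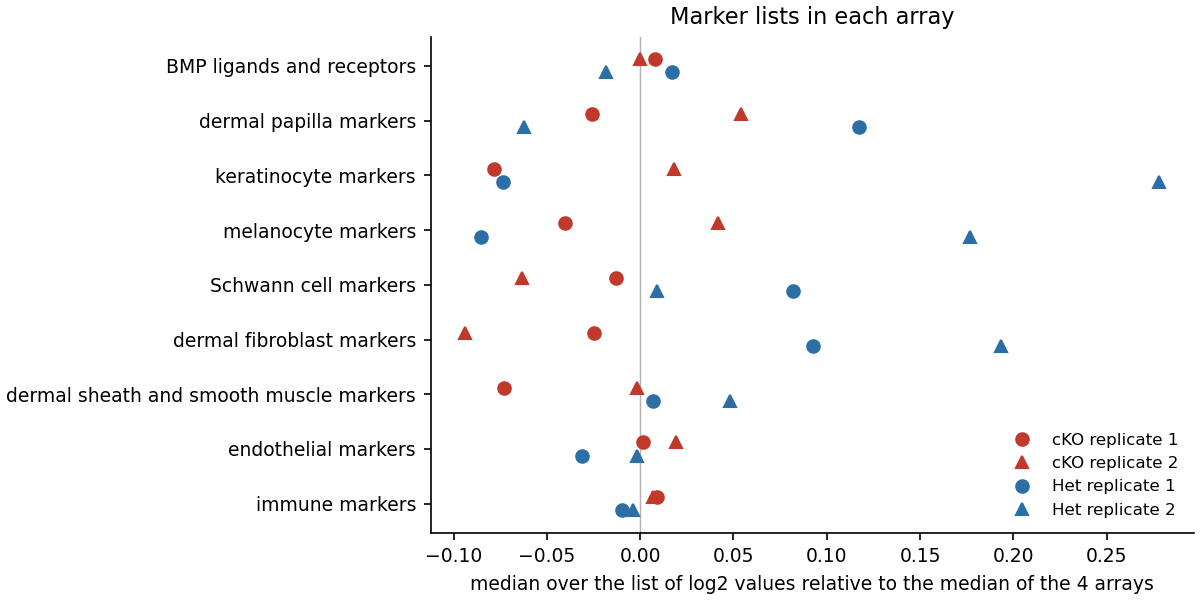
Median over each marker list, and over the 10 BMP ligand and receptor genes, in log2 units relative to the median of the 4 arrays (horizontal axis). Red marks are cKO arrays and blue marks Het arrays (circles, replicate 1; triangles, replicate 2); the keratinocyte markers reach 0.28 in Het replicate 2, and the medians of the 10 BMP genes, which differ in both directions and singly reach 0.70 and -0.47, lie between -0.018 and 0.017.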

How the data were processed

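RNA of the sorted cells was hybridised to Affymetrix Mouse Gene ST arrays. The authors deposited log2 values from RMA, according to the submitters' processing notes. The base of the logarithm is not given in the sources used here and was taken from RMA's usual output. The median of the 4 arrays was 0, within 1e-06, in all 28853 deposited probe sets. Of these, 21789 named 1 gene in the platform annotation, and probe sets of a gene were averaged, giving 19938 genes.

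Genes were compared with limma 3.58.1 in R 4.3.3 (lmFit and eBayes, group as the only term, two-sided, Benjamini-Hochberg adjustment over all 19938 genes, threshold 0.05). Residual degrees of freedom were 2, and those of the prior 1.52. SEs and 95% intervals are those of the moderated fit. On simulated data over 19938 genes, the fit of cKO against Het called 64 of 100 genes changed by a log2 value of 1. It called 84 of 100 changed by 2, with 7 false calls. All were changed at once, which eases the threshold for each. The noise was independent between arrays and genes, without a deviation shared by the genes of an array. These rates may therefore be too high for the real arrays, where Sox2 at -1.81 did not pass (adjusted p = 0.345, limma).

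The 10 genes, the pathway and marker lists and the motifs were chosen with earlier results of these data known. Named genes were the 10 and Sox2, the 2 largest differences of each pathway list, the 3 pathway genes nearest to Bmp2 and the largest difference of each marker list. The sex-linked genes were named outside that rule, after their values were seen, as was the papilla marker Wif1. Some listed genes are not reported here. The alternatives comprised centring each array on its own median, robust estimation of the prior, a block for the replicate number, no moderation, medians over probe sets, probe sets fitted singly, a filter on SD, and each array left out. A planned comparison of protein sequences is not analysed here. Python 3.11.15 with matplotlib 3.10.9 drew the figures.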

Additional observations from a re-analysis of the deposited data

How the results depend on the processing

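In all 11 alternatives 0 of the 10 ligand and receptor genes passed limma's test, and outside the fits without 1 array none of them changed direction (Bmpr1b was not among the genes kept by the SD filter). The lowest adjusted p of the set was 0.434 under that filter and 0.587 without 1 array. The SD filter kept 9969 genes and gave prior degrees of freedom of 66.54 in place of 1.52. It called 116 genes, Sox2, Sostdc1 and Id3 among them, where 0 were called over all genes. Since the SD over the 4 arrays includes the group difference, the filter is not independent of the test and these calls are not evidence of a difference. The median of the 9 genes of the set that the filter kept was 0.038. With the replicate number as a block, Acvr1 kept its difference of -0.14 with an adjusted p of 0.611, and 0 genes passed; the same-numbered arrays deviated together with r = 0.304 over all genes, in 2 pairs, which does not show that the numbers pair the samples. The count of the set with separated groups ran from 3 to 9 without 1 array, where 3 arrays separate more easily: 71.1% of all genes did without cKO replicate 1, against 33.5% with all 4. The median of the set ran from -0.043 to 0.012. Genes whose direction turned without 1 array had these ranges. Bmp3 ran from -0.13 to 0.014, Bmp4 from -0.037 to 0.35, Bmp5 from -0.066 to 0.14 and Bmp7 from -0.22 to 0.014. Bmpr1a ran from -0.20 to 0.023, Bmpr1b from -0.020 to 0.0015 and Bmpr2 from -0.067 to 0.25. Outside the set, Bmp1 ran from -0.047 to 0.20, Gdf10 from -0.22 to 0.093, Smad5 from -0.086 to 0.30, Smurf2 from -0.024 to 0.23, the endothelial marker Cdh5 from -0.35 to 0.088 and the melanocyte marker Mlana from -1.17 to 0.57. Beyond fewer samples or genes in the fit, the cause of these shifts was not tested. With 2 arrays per group, intervals of the differences reach 1.18 (Bmp2), so a difference of more than 2-fold in Bmp2 lies inside its interval. Signal over background is not known for any gene.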
